A study of Mus musculus with 4 samples.

Results

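Oxidative phosphorylation subunits are the nuclear-encoded proteins of the 5 complexes of the mitochondrial inner membrane, together with cytochrome c. They were read in gastrocnemius muscle as every gene whose symbol in the array annotation starts with Ndufa, Ndufb, Ndufc, Ndufs or Ndufv and a digit, is Sdha to Sdhd, Cyc1 or Cycs, starts with Uqcr or Atp5, or is Cox4 to Cox8 followed by letters. The rule found 83 genes among the 18193 genes with a probe set of their own, and 81 of them reached the median signal of an array at least once, as did 12565 of all genes. There were 34 such genes for complex I, 4 for complex II, 9 for complex III, 16 for complex IV and 17 for complex V, and Cycs. The members that stayed below the filter were Ndufb4 and Cox7b2. Cox7b and the subunits encoded by mitochondrial DNA were not analysed here.

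The groups were FoxO1,3,4-/- mice starved for 24 h with water, FoxO1,3,4-/- mice fed ad libitum, FoxO1,3,4 f/f mice starved for 24 h and FoxO1,3,4 f/f mice fed ad libitum, all male and from a cross of C57BL/6N and FVBN. FoxO1,3,4 f/f mice, the control, carry the floxed alleles without deletion and are called wild type in the labels. In the knockout, Cre recombinase was driven by the MLC1f promoter, a fast myosin light chain promoter that the study describes as active in type II but not type I fibres, and non-muscle cells of the tissue keep their FoxO genes. RNA of 6 muscles of 3 mice was pooled for each condition and hybridised to 1 Affymetrix array, so there were 4 arrays, no replicates and no test. In whole muscle, fewer fibres of a type and less RNA per fibre cannot be told apart.

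The signal of a probe set is a brightness on a linear scale, and each comparison is a log2 ratio of 2 arrays. The median signal over all probe sets was 22.9 and 23.8 in starved and fed knockout muscle, against 26.0 and 26.3 in starved and fed control muscle. Since the scaling of the arrays is not known, values for the subunits are set beside those for all genes. Foxo4 was at 34.3 and 31.3 in starved and fed knockout muscle, against 291.3 and 296.9 in starved and fed control muscle. Foxo1 was at 165.5 and 185.2 in starved and fed knockout muscle, against 554.4 and 303.8 in starved and fed control muscle. Foxo3 was at 460.9 and 297.3 in starved and fed knockout muscle, against 477.8 and 250.1 in starved and fed control muscle, and its probe set does not separate the genotypes.

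Oxidative phosphorylation passes electrons from NADH through complex I, or from succinate through complex II, to ubiquinone. Complex III hands them on to cytochrome c and complex IV to oxygen, and the proton gradient built on the way drives ATP synthesis by complex V. Oxidative muscle fibres are rich in these complexes, and all except complex II combine nuclear with mitochondrially encoded subunits.

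Most subunits were bright: 75 had a mean signal over 1000 and 67 over 4000. In control muscle they were slightly lower after starvation, with 75 of 81 below their fed level and 6 above it, against 60.1% and 39.8% of all genes. Of the other genes with mean signal over 4000, 63.8% were below 0. The median starved over fed ratio was 0.871 (log2 -0.20, interquartile range -0.28 to -0.13). In knockout muscle the median ratio was 0.972 (log2 -0.04), 57 of 81 lay below the fed level and 24 above it, against 57.8% and 42.0% of all genes. The direction in knockout muscle depended on the scale, since the median turned to 0.015 when the arrays were given a common median, and those of complexes I and V turned with it, whereas the control value was then -0.18.

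The median over all genes was -0.06 in knockout and -0.11 in control muscle. Over the other genes with mean signal over 1000 it was -0.05 in knockout and -0.12 in control muscle. Over the other genes over 4000 it was 0.01 in knockout and -0.08 in control muscle. The subunits were therefore 0.09 below all genes in control muscle and 0.02 above them in knockout muscle. Beside the other genes over 4000 they lay below in both genotypes, and further below in control muscle. The distance from all genes, most of which were much dimmer, is small beside the spread of single genes. Still, 64 of 81 subunits lay below the all-gene median in control muscle and 30 of 81 did so in knockout muscle.

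Taken gene by gene, the starvation ratio was higher in knockout than in control muscle for 74 of 81 subunits, against 54.3% of all genes and 69.5% of the other genes over 4000. The median difference, knockout minus control, was 0.14 on the log2 scale for the subunits, 0.04 for all genes and 0.09 for the other genes over 4000. With arrays scaled to a common median it was 0.18 for the subunits and 0.08 for all genes. This difference was not tested, since each ratio rests on 1 pair of arrays.

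**Figure D1:**
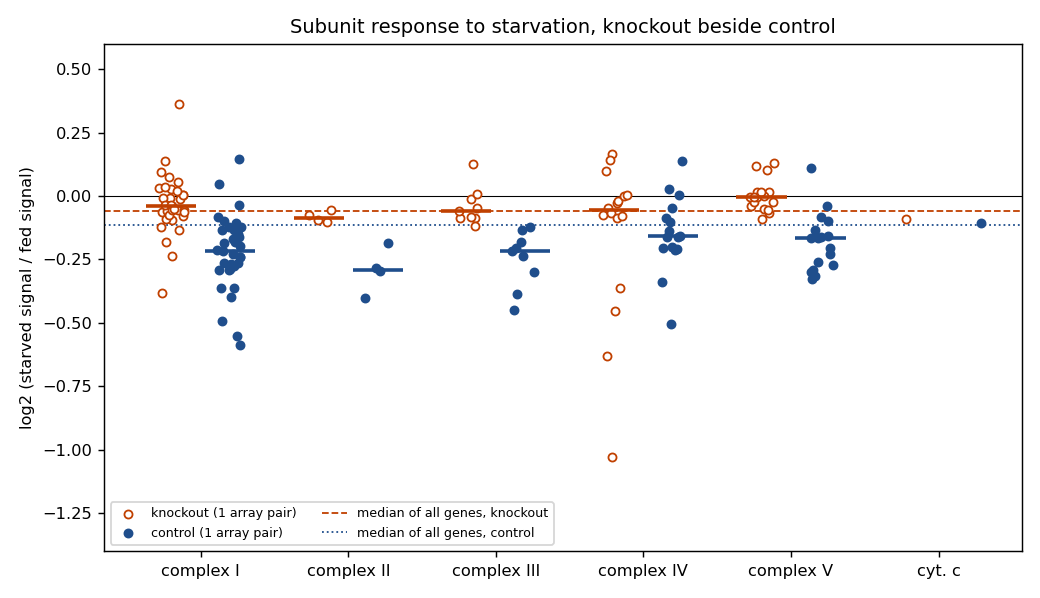
Each point is the log2 ratio of starved to fed signal of 1 subunit that passed the filter, by complex, with knockout in open and control in filled circles; bars are medians of a complex and broken lines medians of all genes. Complex medians lie between -0.08 and -0.00 in knockout and between -0.29 and -0.16 in control muscle.

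The position of the starved control array is clearest when the 4 signals of a subunit are ranked. It held the lowest signal for 55 of 81 subunits, or 67.9%, against 22.1% of all genes, 30.0% of the other genes over 1000 and 37.0% of those over 4000. The starved knockout array was lowest for 17 subunits (40.1% of all genes), the fed knockout array for 9 (29.6%) and the fed control array for 0 (8.15%). The fed control array was highest for 70 subunits, against 46.4% of all genes. This last rank rested on the overall level of the arrays, for with a common median the fed control array was highest for 8 subunits, while the starved control array was lowest for 71.

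The share of each array's own signal that the subunits took does not depend on the scale of the arrays, and it too was lowest in starved control muscle. The summed signal of the subunits made up 8.12% and 8.18% of the summed signal of all genes in starved and fed knockout muscle, against 7.22% and 7.81% in starved and fed control muscle. Complex I made up 2.96% and 2.99% in starved and fed knockout muscle, against 2.64% and 2.87% in starved and fed control muscle. Complex V made up 2.16% and 2.11% in starved and fed knockout muscle, against 1.89% and 2.05% in starved and fed control muscle.

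**Figure D2:**
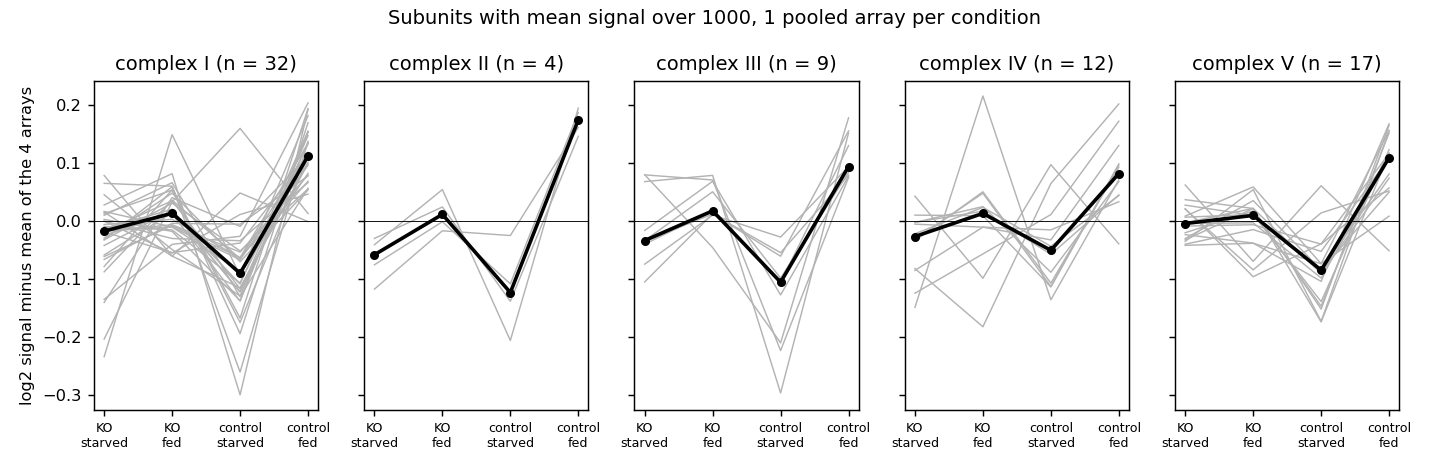
Each grey line is 1 subunit with mean signal over 1000 and shows its log2 signal on the 4 arrays minus its own mean, with the median in black. The starved control array is the low point of the median in all 5 complexes.

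At the study's 1.5-fold threshold hardly any subunit was called. In control muscle 1 fell on starvation and 0 rose, against 14.2% and 9.21% of all genes. In knockout muscle 2 fell and 0 rose, against 9.45% and 7.36% of all genes. At 1.2-fold, 26 subunits were down in control muscle, a share of 32.1% that lay near the 35.0% of all genes, while 0 were up, against 20.2% of all genes. In knockout muscle 5 were down and 1 was up at 1.2-fold, against 26.0% and 17.9% of all genes. Beside all genes, most of which were much dimmer, the subunits thus showed a small shift in 1 direction and few large single changes. The share called among equally bright genes is not given here, so the few calls are not shown to be particular to the subunits. None of the members called at 1.5-fold in any comparison had a mean signal over 1000.

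Probe sets of the same gene give the only measure of scatter the arrays hold. It covers disagreement between probes alone, and not differences between arrays, pools or animals. For 37 subunits with 91 probe sets over 1000, the pooled SD between probe sets of a subunit was 0.148 in knockout and 0.139 in control muscle for the log2 starvation ratio, beside median shifts of -0.04 in knockout and -0.20 in control muscle. The shift of a single subunit is thus of the order of the scatter of its probes. In control muscle, all bright probe sets lay below 0 for 33 of these 37 subunits, and in knockout muscle for 20. Over the 129 bright probe sets of all subunits, 91 were below 0 in knockout muscle and 120 in control muscle. Of the other genes with mean signal over 1000, 59.7% were below 0 in knockout muscle and 65.8% in control muscle. Those shares count genes, and shares of equally bright probe sets are not given here. Probe sets of the same gene were read on the same arrays, so they are not separate support for a shift.

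Promoters of the subunits were searched because the members moved together. Among the factors known for this gene group are NRF1, which binds many promoters of respiratory genes, the oestrogen-related receptors (ERR), YY1 and GABPA. The search covered 250 bases before the RefSeq start site on both strands, for 67 subunits and 27025 genes of the mouse build GRCm38.p6. The NRF1 letters GCGCANGCG were in 13 subunits, or 19.4%, against 5.86% of all genes. The ERR letters TCAAGGTCA, the YY1 letters AAGATGGCG and the GABPA letters CCGGAAGTG were each in 1 subunit (1.49%), Atp5g3, Atp5j and Uqcrh, against 0.422%, 0.710% and 1.60% of all genes. The FoxO letters TGTTTAC were in 1 subunit, Cox7a2, 212 bases before the start, against 3.54% of all genes. A match is only a run of letters, and GCGCATGCGC counts on both strands at overlapping positions.

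The last 100 bases before the start are shown for 6 subunits. Sdha and Sdhd belong to complex II, Cycs is the electron carrier, and Atp5g2 is a subunit with an NRF1 match that was not lower after starvation. Atp5g3 carries the ERR letters, and Uqcrfs1, one of the lowest subunits in starved control muscle, has none of the 5 motifs. All lie on the minus strand, at chr13:74350241-74350340 for Sdha, chr9:50603850-50603949 for Sdhd, chr6:50566570-50566669 for Cycs, chr15:102671048-102671147 for Atp5g2, chr2:73911327-73911426 for Atp5g3 and chr13:30545317-30545416 for Uqcrfs1. They are read 5′ to 3′ on the strand of the gene, and capitals mark the motif letters.
Sdha: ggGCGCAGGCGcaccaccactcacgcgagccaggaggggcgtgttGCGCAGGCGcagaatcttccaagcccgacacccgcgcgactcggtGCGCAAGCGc
Sdhd: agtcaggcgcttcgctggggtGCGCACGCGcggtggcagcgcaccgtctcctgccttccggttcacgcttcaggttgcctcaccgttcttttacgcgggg
Cycs: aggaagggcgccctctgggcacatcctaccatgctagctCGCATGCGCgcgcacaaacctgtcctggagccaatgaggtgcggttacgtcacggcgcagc
Atp5g2: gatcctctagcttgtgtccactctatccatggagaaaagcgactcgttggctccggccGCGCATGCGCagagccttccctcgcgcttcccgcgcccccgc
Atp5g3: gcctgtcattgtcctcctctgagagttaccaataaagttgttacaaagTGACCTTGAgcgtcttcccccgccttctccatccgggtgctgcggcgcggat
Uqcrfs1: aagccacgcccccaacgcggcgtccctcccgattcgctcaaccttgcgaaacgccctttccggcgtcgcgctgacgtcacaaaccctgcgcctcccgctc
Among the subunits past the filter, the 12 with an NRF1 match had a median starvation ratio of -0.07 in knockout and -0.16 in control muscle. The 53 without one had -0.03 in knockout and -0.20 in control muscle. The letters did not separate subunits with a larger shift from the others.

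Complex I, the NADH dehydrogenase, was lower in starved control muscle for 32 of 34 subunits, with a median log2 ratio of -0.22, and -0.04 in knockout muscle. Its 6 core subunits measured, most of which carry flavin or iron-sulfur clusters, had a median of -0.05 in knockout and -0.20 in control muscle. The 28 members taken as accessory by symbol, which include Ndufa4 and Ndufa4l2, had -0.04 in knockout and -0.22 in control muscle. Core and accessory subunits thus lay at much the same place.

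Among the bright complex I subunits, Ndufb7, an accessory subunit of the membrane arm, had the lowest ratio in control muscle. Ndufb7 was at 4633.3 and 4810.1 in starved and fed knockout muscle, against 3692.9 and 5193.7 in starved and fed control muscle. The starved control signal stood below the other 3, and the log2 ratio was -0.05 in knockout and -0.49 in control muscle. Its other probe set gave -0.11 in knockout and -0.45 in control muscle.

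Ndufa13, an accessory subunit also known as GRIM-19, was at 8063.5 and 8036.4 in starved and fed knockout muscle, against 6435.4 and 8478.7 in starved and fed control muscle. Its log2 ratio was 0.00 in knockout and -0.40 in control muscle, and the starved control array again stood apart from 3 similar values. Ndufb10 had -0.09 in knockout and -0.36 in control muscle, and Ndufv3 had -0.13 in knockout and -0.36 in control muscle.

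Of the core subunits, Ndufs1, the largest of them, was at 2921.2 and 2879.8 in starved and fed knockout muscle, against 2650.9 and 3245.0 in starved and fed control muscle. Ndufv1, which binds NADH and the flavin, was at 3651.6 and 3420.1 in starved and fed knockout muscle, against 3235.7 and 3886.9 in starved and fed control muscle. Both were lowest on the starved control array. On the deposited scale both were highest on the fed control array, a rank that can turn with the overall level of the arrays. The log2 ratio of Ndufv1 was 0.09 in knockout and -0.26 in control muscle, and its other probe sets gave -0.41 and -0.62 in control muscle.

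Ndufs8, an iron-sulfur core subunit, had the highest ratio of complex I in control muscle on its brightest probe set. That probe set read 4708.0 and 5546.5 in starved and fed knockout muscle, against 6056.2 and 5470.0 in starved and fed control muscle, a log2 ratio of -0.24 in knockout and 0.15 in control muscle. Its 4 other probe sets over 1000 lay between -0.13 and -0.03 in knockout and between -1.03 and -0.28 in control muscle. The direction in control muscle thus depended on the probe set, and 4 of 5 placed Ndufs8 with the rest of complex I.

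Ndufs5 was an exception in complex I, with a lower ratio in knockout (-0.38) than in control muscle (-0.28). It was at 3561.5 and 4644.0 in starved and fed knockout muscle, against 3923.5 and 4750.1 in starved and fed control muscle. Ndufa3 and Ndufa7, accessory subunits, were among the least shifted, at 0.08 and 0.06 in knockout and at 0.05 and -0.04 in control muscle. Ndufs4 was among the highest in knockout muscle, at 0.14, against -0.21 in control muscle.

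Other members of complex I show how far probe sets and genotypes can part. Ndufc2, an accessory subunit, had 0.01 in knockout and -0.24 in control muscle, and its other bright probe sets gave -0.45 and -0.42 in control muscle, while a dim one gave 1.74 in knockout muscle. Ndufa12 had -0.06 in knockout and -0.08 in control muscle, and its dim probe set gave -0.71 in knockout and 0.38 in control muscle. In these genes the bright probe sets lay closer to each other than to the dim one.

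Ndufa5 was at 4546.5 and 4855.5 in starved and fed knockout muscle, against 4902.7 and 5750.0 in starved and fed control muscle. On the deposited scale both knockout values thus lay below both control values. Its other bright probe set did not show this, with 4133.1 and 4475.6 in starved and fed knockout muscle, against 3850.7 and 4518.3 in starved and fed control muscle. Ndufa2 had -0.18 in knockout and -0.12 in control muscle. Ndufs3, a core subunit, was at 5784.6 and 6014.6 in starved and fed knockout muscle, against 5249.0 and 5974.3 in starved and fed control muscle, where the starved control value stood alone. Ndufa10 had -0.08 in knockout and -0.12 in control muscle.

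Ndufa4 and Ndufa4l2 are named for complex I, although the Ndufa4 protein is known to sit in complex IV. Ndufa4 was at 9290.4 and 9358.0 in starved and fed knockout muscle, against 9058.0 and 9931.3 in starved and fed control muscle. Ndufa4l2, known in other tissues as a gene induced by hypoxia, was dim and was the member that fell in control muscle. It was at 78.4 and 79.0 in starved and fed knockout muscle, against 104.8 and 157.3 in starved and fed control muscle. Its log2 starvation ratio was -0.01 in knockout and -0.59 in control muscle, and the fed control array was the high value. Ndufb1, also dim, was at 167.2 and 130.1 in starved and fed knockout muscle, against 103.6 and 151.9 in starved and fed control muscle.

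Complex II, succinate dehydrogenase, links the citrate cycle to the respiratory chain and is built of nuclear-encoded subunits alone. It had the lowest median of the 5 complexes in both genotypes, -0.08 in knockout and -0.29 in control muscle, from 4 genes. On the deposited scale all 4 were highest on the fed control array, a rank that can turn with the overall level of the arrays. Of the 4, 3 were lowest on the starved control array.

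Sdhd, a membrane anchor, was at 3042.1 and 3249.3 in starved and fed knockout muscle, against 2713.1 and 3581.8 in starved and fed control muscle. Sdhc, the other anchor, was at 1863.3 and 1961.7 in starved and fed knockout muscle, against 1821.3 and 2235.4 in starved and fed control muscle. Sdhb, the iron-sulfur subunit, was at 7561.1 and 7850.6 in starved and fed knockout muscle, against 7014.2 and 8543.0 in starved and fed control muscle. On the deposited scale, the knockout values of these 3 genes lay between the starved and the fed control value. Their place below the fed control value depends on the overall level of the arrays.

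Sdha, the flavoprotein, was at 3884.2 and 4164.7 in starved and fed knockout muscle, against 4141.2 and 4712.2 in starved and fed control muscle, so that its lowest array was the starved knockout. On its second bright probe set, at 3426.7 and 3444.7 in starved and fed knockout muscle against 3378.6 and 4052.8 in starved and fed control muscle, the lowest was the starved control. The log2 ratios in knockout muscle were -0.10 for Sdhd, -0.07 for Sdhc, -0.05 for Sdhb and -0.10 for Sdha. In control muscle they were -0.40 for Sdhd, -0.30 for Sdhc, -0.28 for Sdhb and -0.19 for Sdha. A dim probe set of Sdha went the other way in control muscle, at 0.55, while the second bright one gave -0.26.

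Complex III, the cytochrome bc1 complex, was lower in starved control muscle for 9 of 9 subunits, with a median of -0.06 in knockout and -0.22 in control muscle. The largest differences between the genotypes were in its 2 catalytic nuclear subunits. Cyc1, cytochrome c1, which holds the haem that reduces cytochrome c, was at 5810.7 and 5854.3 in starved and fed knockout muscle, against 4513.8 and 6158.5 in starved and fed control muscle. Uqcrfs1, the Rieske iron-sulfur protein, was at 6579.1 and 6030.4 in starved and fed knockout muscle, against 5381.3 and 7041.9 in starved and fed control muscle. In both the starved control array was the lowest by a wide margin.

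The log2 starvation ratio of Cyc1 was -0.01 in knockout and -0.45 in control muscle, and that of Uqcrfs1 was 0.13 in knockout and -0.39 in control muscle. Each was read on a single probe set. The core proteins Uqcrc1 and Uqcrc2, which form the matrix-facing base of the complex, were at -0.08 and -0.08 in knockout and at -0.18 and -0.12 in control muscle. The 5 small subunits had a median of -0.06 in knockout and -0.22 in control muscle.

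Uqcr10, a small subunit beside cytochrome c1, was at 5041.6 and 5010.9 in starved and fed knockout muscle, against 4086.7 and 5025.6 in starved and fed control muscle on its brightest probe set. Its dimmer probe sets did not bear this out in knockout muscle, where they gave -0.83 and -1.28 against 0.01 on the brightest. Uqcrq had dim probe sets at -0.30 and 1.30 in knockout muscle, beside -0.12 on the bright one. Uqcrb, a small subunit that binds ubiquinone, was at 16346.2 and 16883.5 in starved and fed knockout muscle, against 16121.5 and 17688.2 in starved and fed control muscle. Its second bright probe set gave -0.21 for starved knockout over starved control, beside 0.02 on the first.

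Cytochrome c itself, Cycs, was at 12778.2 and 13614.7 in starved and fed knockout muscle, against 13301.6 and 14323.0 in starved and fed control muscle. Its log2 ratio was -0.09 in knockout and -0.11 in control muscle on that probe set, and its other bright probe sets gave -0.23 and -0.35 in control muscle.

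Complex IV, cytochrome c oxidase, had the smallest median shift in control muscle, -0.16, and -0.06 in knockout muscle, and 13 of 16 subunits were lower in starved control muscle. The broadly expressed subunits Cox4i1, Cox5a, Cox5b, Cox6b1 and Cox6c had a median of -0.03 in knockout and -0.16 in control muscle. Several subunits of this complex exist as isoforms, of which Cox6a2, Cox7a1 and Cox8b are the heart and muscle forms and Cox6a1, Cox7a2 and Cox8a the liver-type forms. The muscle forms had a median of -0.08 in knockout and -0.20 in control muscle, and the liver-type forms had -0.07 in knockout and -0.16 in control muscle, so the forms were not separated.

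Cox6a2 was at 9153.8 and 11784.7 in starved and fed knockout muscle, against 9237.4 and 10660.7 in starved and fed control muscle, with both starved arrays low. Its other bright probe set read 4737.5 and 2832.2 in starved and fed knockout muscle, against 5793.9 and 7021.2 in starved and fed control muscle. The log2 ratio in knockout muscle was -0.36 on the first and 0.74 on the second, so its direction there depended on the probe set. In control muscle the probe sets gave -0.21 and -0.28.

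Cox7a1 was at 6704.5 and 7109.4 in starved and fed knockout muscle, against 6374.4 and 7321.6 in starved and fed control muscle. Cox8b was at 11310.0 and 11269.8 in starved and fed knockout muscle, against 11233.2 and 11617.3 in starved and fed control muscle. Cox4i1, the general form of a regulatory subunit, was at 10054.0 and 10376.1 in starved and fed knockout muscle, against 9904.2 and 10523.5 in starved and fed control muscle. The 4 values of Cox8b and of Cox4i1 were nearly level.

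Of the liver-type forms, Cox6a1 was at 4306.3 and 4513.4 in starved and fed knockout muscle, against 4730.8 and 5289.6 in starved and fed control muscle, and Cox8a at 1056.5 and 985.5 in starved and fed knockout muscle, against 1169.5 and 1286.2 in starved and fed control muscle. For both, each knockout value was below each control value, and the median signal over all probe sets was also lower on the knockout arrays. Cox7a2 was at 11141.6 and 11772.4 in starved and fed knockout muscle, against 10531.2 and 12191.8 in starved and fed control muscle. Cox7a2l, a factor of supercomplex assembly that the symbol rule takes in, was 1 of 3 members of complex IV above its fed level in control muscle, at 0.14, and 0.14 in knockout muscle. Its other bright probe sets gave 0.05 and -0.08 in control muscle, so that its direction there depended on the probe set.

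The remaining members of complex IV were dim. Cox4i2, the form known from lung, was at 9.7 and 19.8 in starved and fed knockout muscle, against 31.2 and 39.5 in starved and fed control muscle, and its log2 starvation ratio was -1.03 in knockout and -0.34 in control muscle. Cox8c, a form known from testis, was at 80.1 and 124.2 in starved and fed knockout muscle, against 93.8 and 91.9 in starved and fed control muscle. These were the 2 members that fell in knockout muscle. Cox6b2, another testis form, was at 19.5 and 17.4 in starved and fed knockout muscle, against 19.8 and 28.1 in starved and fed control muscle. Cox7c was read on a dim probe set and had 69.1 and 94.5 in starved and fed knockout muscle, against 70.9 and 70.6 in starved and fed control muscle.

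Complex V, the ATP synthase, had a median of -0.00 in knockout and -0.17 in control muscle, and 16 of 17 subunits were lower in starved control muscle. The 5 subunits of F1, the catalytic head with its central stalk, had a median of -0.00 in knockout and -0.16 in control muscle. The 4 of the peripheral stalk, which holds the head against rotation, had -0.03 in knockout and -0.26 in control muscle. The 5 other membrane subunits had -0.01 in knockout and -0.21 in control muscle. The stalk subunits Atp5j and Atp5o were among the lowest.

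Atp5j was at 8288.1 and 8604.9 in starved and fed knockout muscle, against 7630.2 and 9503.8 in starved and fed control muscle. Atp5o was at 7411.7 and 7334.1 in starved and fed knockout muscle, against 6404.3 and 7837.7 in starved and fed control muscle. Atp5md, a small membrane subunit, was at 8504.2 and 9046.1 in starved and fed knockout muscle, against 7728.3 and 9708.9 in starved and fed control muscle. On these probe sets and the deposited scale, the knockout values lay between the control values. Their place below the fed control value depends on the overall level of the arrays. A second bright probe set of Atp5o went the other way between the genotypes, with a starvation ratio of -0.30 in knockout and -0.12 in control muscle. Atp5a1, the alpha subunit of the head, had log2 ratios of -0.04 in knockout and -0.30 in control muscle, and Atp5b, the catalytic beta subunit, had -0.03 in knockout and -0.16 in control muscle.

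Atp5pb, the b subunit of the stalk, was at 11009.5 and 11036.6 in starved and fed knockout muscle, against 10770.1 and 12628.3 in starved and fed control muscle. Atp5h, the d subunit of the stalk, had -0.07 in knockout and -0.17 in control muscle. Atp5l, the g subunit of the membrane part, was at 8330.6 and 7747.8 in starved and fed knockout muscle, against 8293.7 and 8514.3 in starved and fed control muscle. On the deposited scale its low value was the fed knockout array. Atp5mpl had -0.00 in knockout and -0.26 in control muscle, and Atp5d, the delta subunit, had 0.02 in knockout and -0.13 in control muscle.

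The rotating c ring is encoded by Atp5g1, Atp5g2 and Atp5g3, which give the same mature protein. These genes did not share a pattern. Atp5g3 was at 10122.0 and 10019.9 in starved and fed knockout muscle, against 9571.7 and 11555.3 in starved and fed control muscle, a log2 ratio of 0.01 in knockout and -0.27 in control muscle. Atp5g1 had -0.05 in knockout and -0.08 in control muscle. Atp5g2 was at 5794.4 and 5288.9 in starved and fed knockout muscle, against 5789.2 and 5356.7 in starved and fed control muscle, and was higher on both starved arrays, at 0.13 in knockout and 0.11 in control muscle. Dim probe sets of Atp5c1 and Atp5j2 went against their bright ones in control muscle, at 0.67 and 0.81.

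**Figure D3:**
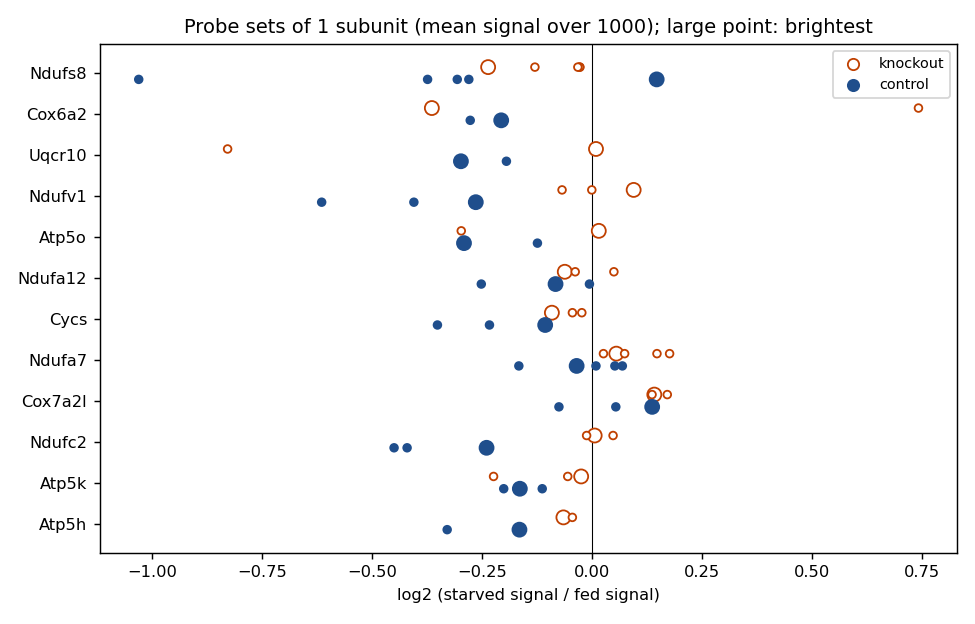
Each point is 1 probe set with mean signal over 1000 and shows its log2 ratio of starved to fed signal, with knockout in open and control in filled circles, for the 12 subunits whose probe sets spread most; the large point is the brightest probe set. Ndufs8 has its brightest probe set at 0.15 in control muscle and the other 4 between -1.03 and -0.28.

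The genotypes were compared directly in the same nutritional state. In starved muscle, 59 of 81 subunits were higher in knockout than in control, against 32.7% of all genes, and 22 were lower, against 67.1% of all genes. The median log2 ratio of knockout over control was 0.06 for the subunits, -0.16 for all genes and -0.02 for the other genes over 4000, of which 45.1% were higher in knockout. In complex V this held for 17 of 17 subunits, in complex I for 25 of 34, in complex III for 7 of 9 and in complex II for 3 of 4. In complex IV it held for 7 of 16, with a median of -0.02, which turned to 0.17 when the arrays were given a common median. Above the median of all genes, most of which were much dimmer, lay 77 of 81 subunits.

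At 1.5-fold, 1 subunit was up and 1 was down in starved knockout over starved control muscle, against 6.37% and 14.5% of all genes. These were Ndufb1 at 0.69 and Cox4i2 at -1.69, both dim. At 1.2-fold 6 were up and 3 down, against 14.7% and 39.0% of all genes. Among the bright subunits, Cyc1 was highest at 0.36, followed by Ndufb7 at 0.33, Ndufa13 at 0.33, Uqcr10 at 0.30 and Uqcrfs1 at 0.29. The lowest was Ndufs8 at -0.36 on its brightest probe set, while its other bright probe sets lay between 0.07 and 0.32. All bright probe sets were above 0 for 18 of the 37 subunits with several and below 0 for 3. The corresponding shares among other bright genes are not given here.

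In fed muscle, 75 of 81 subunits were lower in knockout than in control, but so were 77.9% of all genes, and 6 were higher, against 21.9% of all genes. The median log2 ratio was -0.10 for the subunits and -0.20 for all genes, and its direction turned with the scale, to 0.048 with a common median, as did those of complexes I, III, IV and V. It was 0.014 after quantile normalisation. At 1.5-fold 0 subunits were up and 3 were down, against 3.37% and 11.3% of all genes. Those down were the dim Cox4i2, Ndufa4l2 and Cox6b2, the last at -0.69. At 1.2-fold 2 were up and 4 down, against 8.05% and 39.1% of all genes. Cox6a2 was the highest bright subunit at 0.14 and Cox8a the lowest at -0.38, and the second probe set of Cox6a2 stood at -1.31. The other genes over 4000 had a median of -0.09, close to that of the subunits, and 81.7% of them were lower in knockout.

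**Figure D4:**
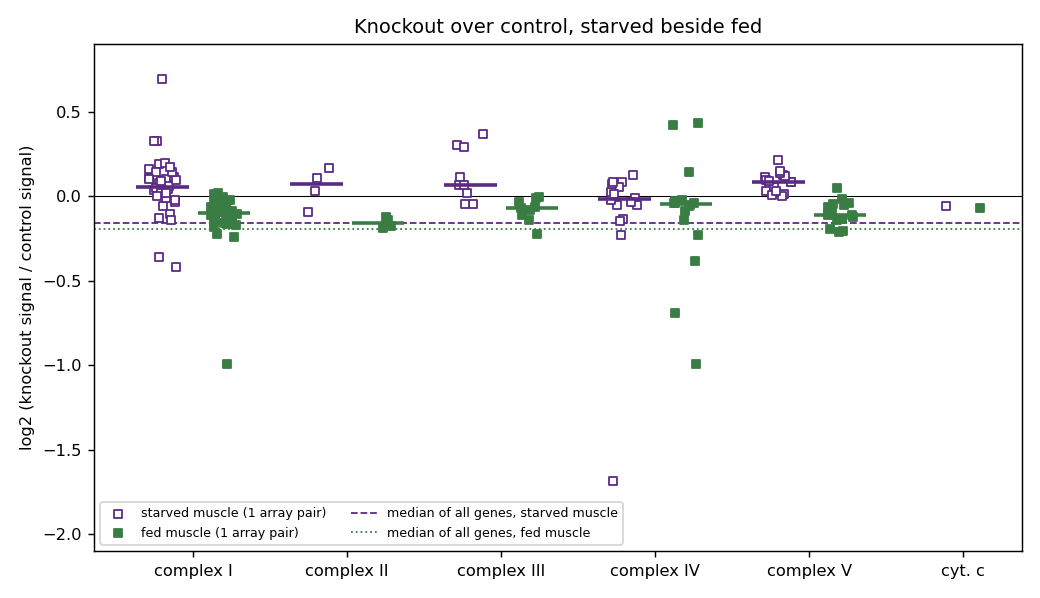
Each point is the log2 ratio of knockout to control signal of 1 subunit that passed the filter, by complex, with starved muscle in open and fed muscle in filled squares; bars are medians of a complex and broken lines medians of all genes. Of 81 subunits, 77 in starved and 71 in fed muscle lie above the line for all genes.

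Assembly factors build the complexes without staying in them, and the list also held the ATP synthase inhibitor Atpif1. Of 49 listed, 45 passed the filter, and their median starvation ratio was -0.13 in knockout and -0.35 in control muscle, further from 0 than that of the subunits. The factors were also much dimmer. On the fed control array the median signal of the lists by complex ran from 240.75 to 903.65, against 7053.5 for the subunits. In control muscle 39 of 45 were below 0, against 60.1% of all genes. At 1.5-fold 8 fell and 1 rose, against 14.2% and 9.21% of all genes, so the share that fell was near that of all genes. In knockout muscle 33 were below 0, against 57.8% of all genes, 1 fell and 0 rose, against 9.45% and 7.36% of all genes.

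The factors that fell in control muscle were for complex IV Cox11, Cox10, Coa5 and Coa6, and for complex I Ndufaf5 and Tmem126b. For complex II it was Sdhaf3 and for complex III Bcs1l. Tmem126b was dim, at 33.1 and 74.7 in starved and fed control muscle. Cox11, which delivers copper to cytochrome c oxidase, was at 794.5 and 910.5 in starved and fed knockout muscle, against 568.9 and 989.7 in starved and fed control muscle, a log2 ratio of -0.20 in knockout and -0.80 in control muscle. Cox10, which makes haem precursors for the same enzyme, had -0.09 in knockout and -0.74 in control muscle. Coa5 had -0.14 in knockout and -0.75 in control muscle, and Sdhaf3 had -0.14 in knockout and -0.61 in control muscle. Sco2, a copper chaperone, rose in control muscle, and was at 150.5 and 128.9 in starved and fed knockout muscle, against 146.7 and 72.1 in starved and fed control muscle. The factor that fell in knockout muscle was Cox15, at -0.61, against 0.10 in control muscle.

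**Figure D5:**
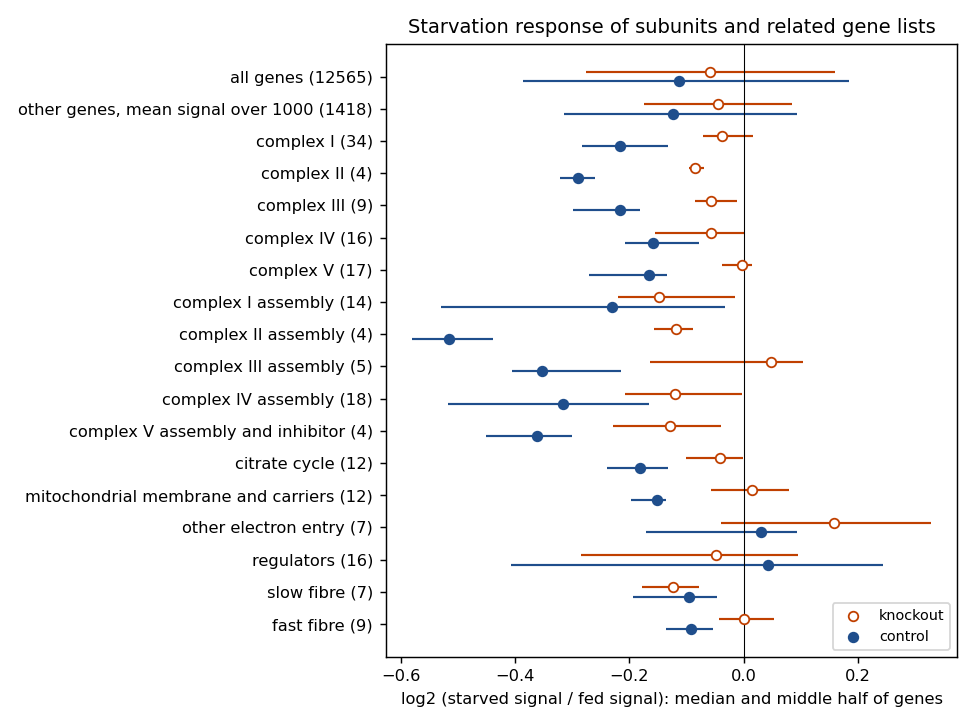
Each point is the median log2 ratio of starved to fed signal of a gene list, with knockout in open and control in filled circles, the number of genes that passed the filter in brackets and lines for the interquartile range. Assembly factors of complex II have the lowest control median of the lists shown, -0.52.

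Other mitochondrial lists gave similar medians to the subunits. The citrate cycle enzymes had -0.04 in knockout and -0.18 in control muscle, with 9 of 12 below 0 in knockout and 11 of 12 in control muscle, against 57.8% and 60.1% of all genes. Carriers and membrane proteins had 0.01 in knockout and -0.15 in control muscle, and in this list Ucp3, an uncoupling protein of skeletal muscle, rose in both genotypes. It was at 855.1 and 247.4 in starved and fed knockout muscle, against 710.0 and 282.2 in starved and fed control muscle.

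Among proteins that pass electrons to ubiquinone by other routes, Etfdh, which takes them from fatty acid oxidation, had 0.59 in knockout and 0.36 in control muscle, and rose at 1.5-fold in knockout muscle. Gpd2, which takes them from glycerol phosphate, had -0.65 in knockout, where it fell, and -0.40 in control muscle. The 7 genes of this list past the filter had a median of 0.16 in knockout and 0.03 in control muscle.

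Of the 16 regulators of mitochondrial genes listed, 2 fell and 2 rose in control muscle, shares near the 14.2% and 9.21% of all genes. Ppargc1b, a coactivator of respiratory gene transcription, was the lowest in control muscle. It was at 285.0 and 359.4 in starved and fed knockout muscle, against 157.1 and 416.6 in starved and fed control muscle, a log2 ratio of -0.33 in knockout and -1.41 in control muscle. Its starved control value was the lowest of the 4. Its relative Ppargc1a was at 700.7 and 850.0 in starved and fed knockout muscle, against 880.6 and 820.1 in starved and fed control muscle. Esrrg fell in control muscle, at -0.71, against -0.34 in knockout muscle, while the dim Nrf1 and Esrrb rose in control muscle, at 0.69 and 0.94. Esrra had -0.50 in knockout and -0.46 in control muscle.

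Markers of fibre types and other cells were read for all 4 arrays. The 9 fast fibre markers summed to 128061 and 127290 in starved and fed knockout muscle, against 122221 and 130512 in starved and fed control muscle. The 7 slow fibre markers summed to 29929.8 and 32444.4 in starved and fed knockout muscle, against 26663.0 and 29462.2 in starved and fed control muscle. Both sums were lowest on the starved control array, and the median starvation ratio was 0.00 in knockout and -0.09 in control muscle for the fast markers, and -0.12 in knockout and -0.10 in control muscle for the slow ones. The part of fibre composition in the subunit values was not tested.

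Markers of other tissue differed between the pools. More of a tissue and more RNA of its markers per cell cannot be told apart here. The 8 hair and epidermis markers, 7 of them past the filter, summed to 1152.5 and 916.9 in starved and fed knockout muscle, against 598.1 and 819.9 in starved and fed control muscle. The hair gene Krt25 was at 318.5 and 18.2 in starved and fed knockout muscle, against 6.9 and 252.9 in starved and fed control muscle. The list was split. Krt25, Krt27, Krt71 and S100a3 were lowest on the starved control array, as were most subunits, while Lor, Krt10 and Krt14, genes of the epidermis, were lowest on the fed control array.

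Of 6 white adipocyte markers, 4 were found. They summed to 16698.8 and 15733.2 in starved and fed knockout muscle, against 20475.8 and 18019.9 in starved and fed control muscle. Most of the sum was Fabp4, at 14974.7 in starved control muscle. Adipoq, Fabp4 and Cidec were highest on the starved control array, while Lep was highest on the fed control array, at 278.8. The 3 fibroblast markers summed to 3537.8 and 6858.6 in starved and fed knockout muscle, against 4320.1 and 7757.2 in starved and fed control muscle. Of the 4 brown adipocyte markers, Ucp1, which defines these cells, was dim. It was at 17.6 and 6.5 in starved and fed knockout muscle, against 38.5 and 2.4 in starved and fed control muscle. Cidea was at 101.9 and 46.3 in starved and fed knockout muscle, against 105.2 and 20.6 in starved and fed control muscle. Elovl3 was at 48.9 and 26.9 in knockout and at 39.4 and 19.4 in control muscle, in the same order. Cox8b, also a muscle form, was nearly level on the 4 arrays. The 3 macrophage markers summed to between 1452.8 and 2154.6 and the 3 endothelial markers to between 1091.5 and 1310.4 on the 4 arrays. Of the 4 cardiac markers, Nppa, Nppb and Tnni3 stayed below the filter. Myh6 passed it but was dim, at 28.2 and 26.3 in starved and fed knockout muscle, against 22.5 and 26.0 in starved and fed control muscle. The part of other tissue in the subunit values was not tested.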

How the data were processed

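RNA of gastrocnemius muscle from 4 conditions was hybridised to 1 Affymetrix mouse genome array each. The values are MAS 5.0 signal intensities on a linear scale, as the authors deposited them, and Affymetrix Expression Console is also listed in the submitters' processing notes. To what level signals were scaled, and which were called present, is not given in the sources used here. With 1 pool of 3 mice per condition the number of arrays limits the precision, and no SD or p-value between samples can be had.

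The platform annotation gives 1 gene for 34945 of 45037 probe sets other than Affymetrix controls, and only these were used. This left out 9 probe sets shared by several genes of Ndufa11, Ndufa13, Ndufb2, Ndufb4, Ndufs5 or Ndufs6. Where a gene had several probe sets, that of highest mean signal stood for it. It had to reach the 50th percentile of an array at least once, and a signal of 0 was set to 0.1 before the logarithm. Genes were called at 1.5-fold, the study's threshold. Of the members, 18 were read on probe sets that can hybridise to several transcripts (names ending in s_at or x_at).

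Members and gene lists were chosen with earlier results of these data known. The text names the succinate dehydrogenase subunits, the isoform families, Cyc1 and Cycs, the 3 highest and 3 lowest members of a complex and comparison, members past 1.5-fold, members whose probe sets differ by over 0.58, and up to 3 highest and lowest genes of other lists. Ndufb10, Ndufs1, Ndufv3, Cox5a, Coa6 and Ppargc1a fall outside this rule and were chosen after their values were seen. So was the division of complexes into core, F1, stalk and isoform groups. Promoters came from RefSeq for GRCm38.p6, in which 67 members matched. Alternatives concerned array scaling, the filter, an offset, the choice of probe set and the threshold. Calling was checked on simulated data. Python 3.11.15, numpy 2.4.6, pandas 2.3.3 and matplotlib 3.10.9 were used.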

Additional observations from a re-analysis of the deposited data

Results flagged for a closer look

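Cox8c, the testis form of a cytochrome c oxidase subunit, had starvation ratios of opposite sign in the 2 genotypes, of which that in control muscle was close to 0. Its signal was 80.1 and 124.2 in starved and fed knockout muscle, against 93.8 and 91.9 in starved and fed control muscle. The log2 starvation ratio was -0.63 in knockout and 0.03 in control muscle, a difference of -0.66, which was not tested and rests on a single high value on the fed knockout array of a dim probe set.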

How the results depend on the processing

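The median starvation ratio of the subunits stayed below 0 in control muscle under every alternative run, and the median difference between the genotypes stayed above 0. None of the values called at 1.5-fold changed sign. Of 120 comparisons of counts and medians with an alternative, 83 stayed within a set tolerance and 37 moved. The tolerance was a change of less than 0.1 for a median and of at most 1.5-fold for a count. A median near 0 could thus change direction and still count as unmoved. With the arrays scaled to a common median, which moved the all-gene median by over 0.1 in the genotype comparisons, the median of knockout over control was 0.048 in fed and 0.24 in starved muscle, 0 subunits were down on starvation in control and 1 in knockout muscle. Quantile normalisation gave 0.014 in fed muscle with 2 subunits up, and 0 down in control and 1 down in knockout muscle on starvation. Scaling to genes over 1000, added after the data were seen, gave 0.078 in fed muscle with 2 up, 0.21 in starved muscle, and 0 down in control muscle on starvation. Without a filter, 2 subunits were down on starvation in control muscle and 2 in starved knockout over control. With a filter at the 90th percentile, which left 75 subunits, 0 were up or down in all 4 comparisons. An offset of 16 left 0 down on starvation in either genotype. The mean over probe sets gave 5 down in fed and 2 down in starved knockout over control. At 1.2-fold, 26 were down in control muscle, 5 down and 1 up in knockout muscle, 2 up in fed knockout over control, and 6 up and 3 down in starved knockout over control. At 2.0-fold, 0 were down in control and 1 in knockout muscle on starvation, 0 down in fed and 0 up in starved knockout over control. Without s_at and x_at probe sets, added after the data were seen, 76 subunits remained, with 1 up in control muscle and 4 down in knockout muscle on starvation, and 1 up in fed and 2 down in starved knockout over control. The causes were not tested. No paired analysis was possible because each condition has 1 array, and for the same reason no replicate could be left out. Dim members carry most calls, and signal near the median of an array limits what can be read from them.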
